A study of Gallus gallus with 6 samples.

Results

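The genes described here encode secreted factors that respond to low oxygen in many tissues, and the receptors of the VEGF family that some of these factors bind. They were listed by name as STC1, STC2, VEGFA, VEGFC, PGF, ADM, ANGPTL4, TNFRSF11B, FLT1 and KDR, and a row of the deposited RNA-seq table was taken when one of its gene names equalled one of these symbols. Of the 10 names, 9 had a row among the 17340 loci of the table, and none of the 9 loci was joined to another gene. No row carries the name ADM, so adrenomedullin was not analysed here. The genes were chosen by their FPKM with and without DMOG in these same libraries, so these values are given as a description and without a test.

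Primary lens epithelial cells came from White Leghorn chick embryos at embryonic day 10 and were grown on laminin in medium with serum. The DMOG group held 3 libraries of cells kept for 4 h in medium with DMOG (dimethyloxalylglycine) at 1 mM, and the untreated group held 3 libraries of the same kind of cells without DMOG. DMOG enters cells and inhibits the prolyl hydroxylases that mark HIF1α for degradation, so it activates HIF1α in the presence of oxygen, and it can also act on other enzymes of that class. The methods call the libraries biological triplicates, the untreated cells are not described as vehicle-treated, and no allele or transgene was involved.

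Under low oxygen, stabilised HIF1α joins its partner subunit and turns on genes for glucose use, for its own hydroxylases and for secreted signals. VEGFA is the best known of these signals, and in human and mouse it binds the receptor tyrosine kinases FLT1 (VEGF receptor 1) and KDR (VEGF receptor 2). PGF binds FLT1 and not KDR, while VEGFC binds FLT4 (VEGF receptor 3) and, after processing, KDR. These receptors are best known from endothelial cells, and the lens itself has no vessels, so it was asked which ligands and which receptors the cultured lens cells held.

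Levels are in FPKM (fragment counts scaled to exon length and to the mapped total of the library), as the authors made them. Because of the length scaling, levels of different genes can be set side by side. A gene is called present in a condition when each of its 3 libraries measured at least 1 FPKM. The FPKM do not give the read depth, so the precision of a value is known only from the spread between libraries. Fold changes are differences of the mean log2(FPKM + 0.5) between conditions, DMOG minus untreated, with the standard error (SE) of a limma fit over the 9816 loci that averaged at least 1 FPKM. The median of all tested loci was -0.13 on this scale.

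Lens identity and treatment were checked on marker genes. Of 19 lens markers, 17 had a row and 16 averaged at least 1 FPKM, with summed levels of 1370 to 2160 FPKM with DMOG and 1440 to 2390 without it. These sums include a locus that joins ASL1 to ASL2 and GUSB, at 220 to 468 FPKM, which cannot be divided between these genes. CRYAA, the alpha A crystallin, measured 599 to 962 FPKM over the 6 libraries. EGLN3, a HIF prolyl hydroxylase gene and a common HIF1α target, averaged 52.9 FPKM ± 4.87 (SD, n = 3) with DMOG and 1.76 ± 0.368 (SD, n = 3) without it (limma adjusted p 0.000439). SLC2A1, a glucose transporter gene, averaged 88.9 and 22.1 FPKM (limma adjusted p 0.0162). BNIP3L, a gene of mitochondrial turnover, measured 70.17, 65.00 and 32.55 FPKM with DMOG and 19.14, 25.30 and 26.91 FPKM without it, with no overlap (limma adjusted p 0.329). CA9, a carbonic anhydrase gene, averaged 2.52 and 0.420 FPKM with overlapping conditions (limma adjusted p 0.489). EGLN3 and SLC2A1 thus passed an adjusted p of 0.05, and BNIP3L and CA9 did not. BNIP3L and CA9 did pass the less strict limits given below, which use an unadjusted p. BNIP3L had a log2 fold change of 1.15 (limma unadjusted p 0.00683) and CA9 one of 1.74 (limma unadjusted p 0.0274). Because CA9 averaged 0.420 FPKM in untreated cells, it entered the fit through its level with DMOG. DMOG library 3 had the lowest summed lens markers, the largest share of loci listed at 0 (35.9%, against 25.2% to 33.0% in the others) and the largest share of FPKM in small RNA loci (37.4%, against 24.0% to 33.3%). In bulk samples, fewer cells of a type and less RNA per cell cannot be told apart.

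In untreated cells 5 of the 9 genes were present, and with DMOG 7 were. STC2, ANGPTL4, VEGFC and VEGFA were present in both conditions. STC1, PGF and FLT1 were present with DMOG and not without it, and TNFRSF11B was present in untreated cells and not with DMOG. The call for FLT1 in untreated cells rested on untreated library 1, at 0.44 FPKM, since the others measured 1.51 and 1.47 FPKM, and without that library 6 genes were present. KDR reached 1 FPKM in no library. The 3 DMOG libraries exceeded the 3 untreated libraries without overlap in 6 of the 9 genes, a pattern found at 4.47% of all tested loci. In 2 genes, VEGFC and TNFRSF11B, the DMOG libraries all lay lower, as at 11.4% of tested loci. The genes were chosen on these values, so nothing is read from the counts. In the plot of FPKM by library STC1 and PGF start under 1 FPKM in every untreated library, FLT1 starts low, and STC2, ANGPTL4 and VEGFA start from higher levels.

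**Figure D1:**
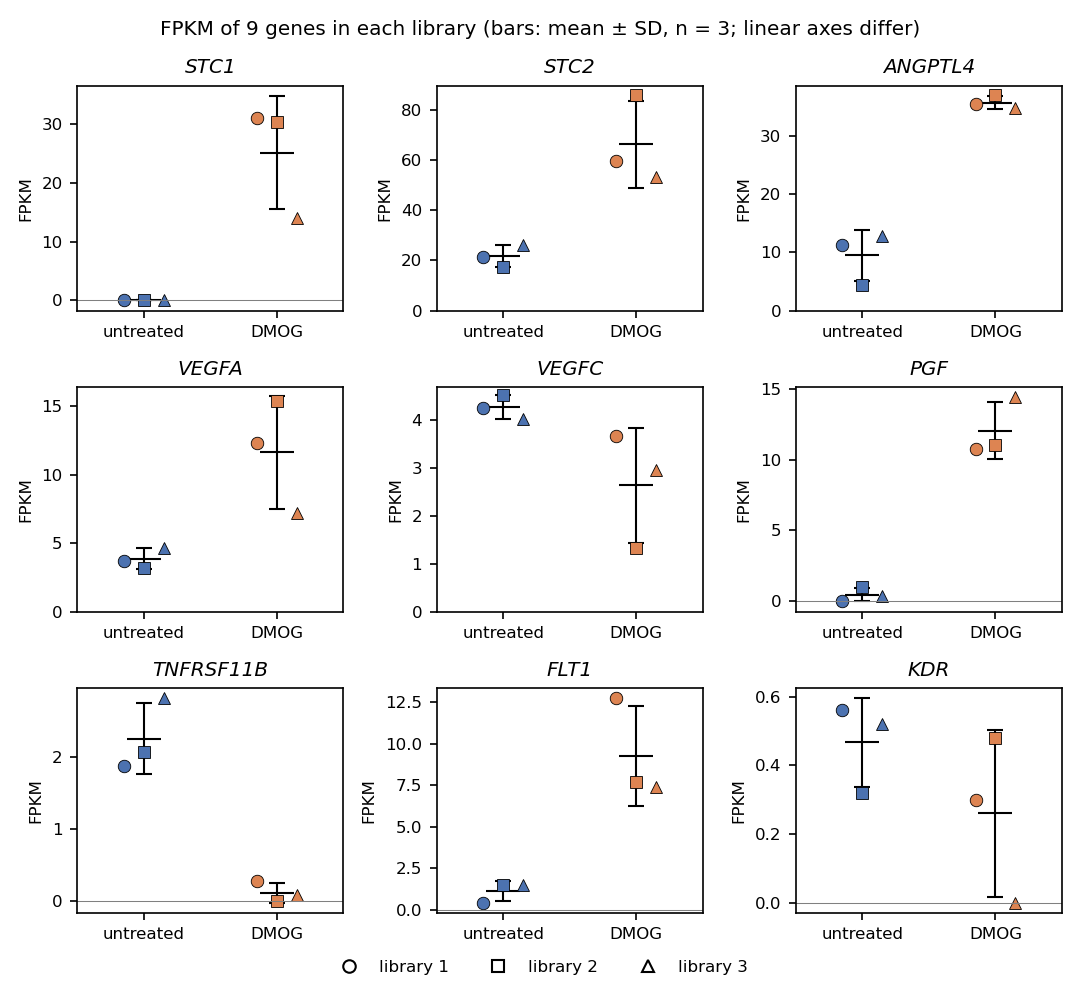
FPKM (linear axis, scale differs by panel) of the 9 genes in the 3 untreated and 3 DMOG libraries, with 1 symbol per library and bars for mean ± SD (n = 3). STC1, PGF and FLT1 start at or under 1.51 FPKM in untreated cells, STC2, ANGPTL4 and VEGFA are higher with DMOG from levels of at least 3.17 FPKM, TNFRSF11B and VEGFC are lower, and KDR stays at or under 0.56 FPKM with overlapping conditions.

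Stanniocalcins are secreted glycoproteins, first known as regulators of calcium in fish, and in human cells both inhibit the protease PAPP-A. STC1 measured 31.08, 30.32 and 14.06 FPKM in DMOG libraries 1, 2 and 3, against 0.10 FPKM in untreated library 2 and values listed at 0 in untreated libraries 1 and 3. DMOG library 3 held less than each of the other DMOG libraries and was still far above every untreated library. On the log2 scale STC1 was higher by 5.51 (SE 0.37), which ranked 2 of 9816 from the top, and this size depends on the pseudocount because the untreated level is near 0. With a pseudocount of 0.1 it was 7.56 and with 1 it was 4.58.

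STC2 was the highest of the 9 genes in both conditions. It measured 59.56, 86.28 and 53.26 FPKM with DMOG and 21.52, 17.46 and 26.21 FPKM without it, so the conditions did not overlap. The ratio of the means was 3.05 and the log2 fold change 1.58 (SE 0.24). The untreated STC2 mean was above that of 93.4% of all loci, and the DMOG mean above that of 98.4%. With DMOG the level of STC1 was 0.264 to 0.522 times that of STC2 in the same library, where in untreated library 2 it was 0.00573 times. The stanniocalcin pair thus held 1 gene that was well expressed before treatment and 1 that was near 0.

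PAPPA, the gene of the protease named above, was at most 0.40 FPKM, and PAPPA2 was listed at 0 in all 6 libraries. IGFBP4, whose product PAPP-A cleaves in human, averaged 7.28 FPKM with DMOG and 5.77 in untreated cells, with a log2 fold change of 0.36 (SE 0.39, limma adjusted p 0.809). IGFBP5 ranged from 0 to 4.33 FPKM with overlapping conditions. Neither IGFBP passed the limits given below.

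ANGPTL4, a secreted inhibitor of lipoprotein lipase, was second to STC2 in both conditions. It measured 35.50, 37.01 and 34.88 FPKM with DMOG and 11.26, 4.45 and 12.77 FPKM without it. The DMOG libraries differed little from each other, with a coefficient of variation (CV) of 3.06%, where the median CV over loci at 1 FPKM or more was 28.4% with DMOG. The untreated libraries had a CV of 46.7%, from the low value in untreated library 2. ANGPTL4 had a log2 fold change of 1.98 (SE 0.36), and of 1.54 without untreated library 2. LPL, the lipase gene, is named for its role and was at or under 1.24 FPKM in every library and was listed at 0 in DMOG libraries 2 and 3. ANGPTL7, another angiopoietin-like gene, measured 1.39, 2.09 and 2.77 FPKM with DMOG and 1.19, 1.30 and 0.93 FPKM without it, with no overlap. Its log2 fold change was 0.63 (SE 0.38, limma adjusted p 0.664), and it did not pass the test.

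Among the VEGF ligands, VEGFA measured 12.32, 15.35 and 7.17 FPKM with DMOG and 3.72, 3.17 and 4.67 FPKM without it. The lowest DMOG library, library 3, lay above the highest untreated library. The ratio of the means was 3.01 and the log2 fold change 1.43 (SE 0.31), and leaving out any single library gave 1.20 to 1.73. The locus lists 4 transcripts, and the value is not divided between them.

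PGF, placental growth factor, measured 10.75, 11.03 and 14.42 FPKM with DMOG. In untreated libraries 1, 2 and 3 it measured 0, 0.97 and 0.37 FPKM. PGF was highest in DMOG library 3, where STC1, STC2, VEGFA, ANGPTL4 and FLT1 were each at their lowest with DMOG. PGF had a log2 fold change of 3.85 (SE 0.42), ranked 4 of 9816, and it was 5.03 with a pseudocount of 0.1 and 3.22 with 1.

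VEGFC, best known as a growth factor of lymphatic vessels, went the other way. It measured 3.66, 1.32 and 2.95 FPKM with DMOG and 4.26, 4.53 and 4.03 FPKM without it. The conditions did not overlap, but DMOG library 1 lay close to untreated library 3. The log2 fold change was -0.68 (SE 0.35), and it was only -0.33 without DMOG library 2. With quantile normalization of the libraries the conditions overlapped. VEGFD had a row that is listed at 0 in all 6 libraries, and VEGFB was not analysed here.

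As a pool, the ligands VEGFA, VEGFC and PGF summed to 7.98 to 9.07 FPKM in untreated cells and 24.54 to 27.70 FPKM with DMOG. In untreated cells VEGFC made up 44.4% to 53.4% of the pool, VEGFA 36.6% to 51.5% and PGF 0% to 11.2%. With DMOG the order turned, with VEGFC at 4.77% to 13.7% and PGF at 39.8% to 58.8%. VEGFA made up 29.2% to 55.4%, a range that overlapped the untreated one. PGF was below VEGFA in DMOG libraries 1 and 2, at 0.873 and 0.719 times its level, and above it in DMOG library 3, at 2.01 times.

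**Figure D2:**
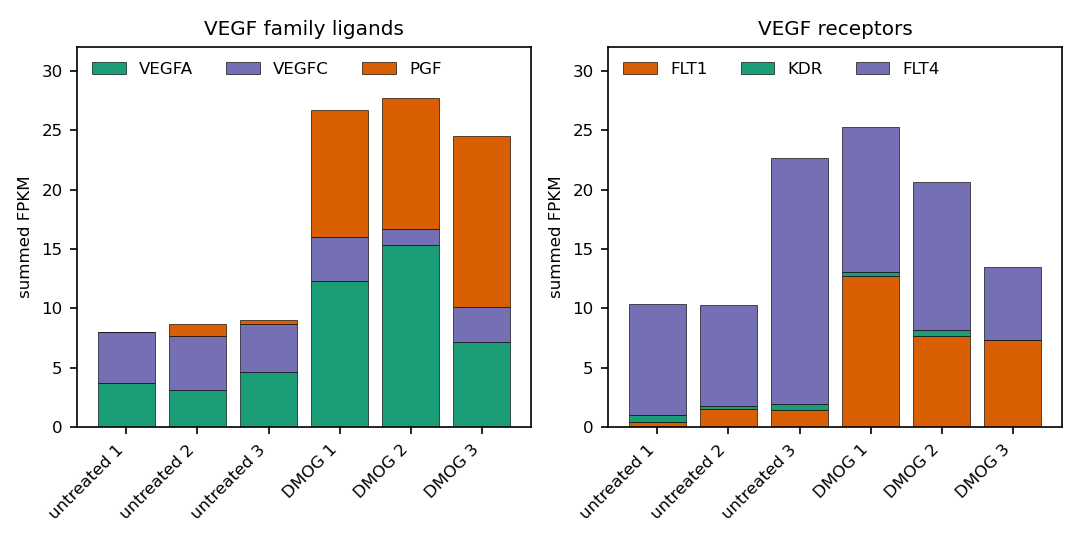
Summed FPKM (linear axis from 0) of VEGF family ligands (left) and VEGF receptors (right) in each of the 6 libraries, divided by gene. The ligand sum is 7.98 to 9.07 FPKM in untreated cells, mostly VEGFA and VEGFC, and 24.54 to 27.70 FPKM with DMOG, mostly VEGFA and PGF. The receptor sums overlap, at 10.33 to 22.63 FPKM in untreated cells and 13.51 to 25.23 FPKM with DMOG. FLT4 makes up 82.3% to 91.2% of the receptor sum in untreated cells and 45.3% to 60.3% with DMOG.

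Of the VEGF receptors, FLT1 measured 12.73, 7.70 and 7.39 FPKM with DMOG and 0.44, 1.51 and 1.47 FPKM without it. The conditions did not overlap. In mammals FLT1 binds VEGFA tightly, signals weakly and is also made in a soluble form that captures ligand. The locus lists 1 transcript, and a soluble form was not measured apart from the receptor. For FLT1 the log2 fold change was 2.62 (SE 0.39), ranked 23 of 9816, with values of 2.25 to 2.80 after leaving out any single library.

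KDR, the main signalling receptor for VEGFA, measured 0.30, 0.48 and 0 FPKM with DMOG and 0.56, 0.32 and 0.52 FPKM without it. The conditions overlapped, and KDR averaged under 1 FPKM and did not enter the fit. FLT4, the receptor of VEGFC, was the highest of the 3 receptor genes in every untreated library. It measured 9.39, 8.50 and 20.64 FPKM without DMOG and 12.20, 12.45 and 6.12 FPKM with it. The conditions overlapped and the log2 fold change was -0.26 (SE 0.41, limma adjusted p 0.868). FLT1 was 0.0469 to 0.178 times FLT4 in untreated cells and 0.618 to 1.21 times with DMOG. The sum of FLT1, KDR and FLT4 overlapped, at 10.33 to 22.63 FPKM in untreated cells and 13.51 to 25.23 FPKM with DMOG. By the limit of 1 FPKM in every library, FLT4 was the VEGF receptor present in untreated cells, with FLT1 above 1 FPKM in untreated libraries 2 and 3, and FLT4 and FLT1 were present with DMOG.

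The neuropilins are co-receptors for VEGF ligands. NRP2 averaged 6.38 FPKM ± 1.84 (SD, n = 3) with DMOG and 6.99 ± 2.20 (SD, n = 3) without it, and NRP1 averaged 1.06 and 1.30 FPKM. Their log2 fold changes were -0.12 (SE 0.31, limma adjusted p 0.934) and -0.20 (SE 0.47, limma adjusted p 0.923). The angiopoietin receptor genes TEK and TIE1 averaged under 1 FPKM over the libraries, and ANGPT1 was at most 0.57 FPKM.

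FLT1, KDR and FLT4 are best known from endothelial cells, so 15 endothelial markers were examined beside them. Of these, 10 had a row and 4 averaged at least 1 FPKM. CDH5, the endothelial cadherin, measured 4.35 to 6.71 FPKM with DMOG and 4.09 to 7.99 FPKM without it, PECAM1 2.21 to 3.81 and 2.96 to 4.92 FPKM, and ERG 1.44 to 3.45 and 2.76 to 4.04 FPKM. SOX17 and SOX18 were listed at 0 in every library, VWF was at most 0.61 FPKM and TEK at most 0.31 FPKM. LYVE1, a marker of lymphatic vessels and of some macrophages, measured 0.70, 0.52 and 2.07 FPKM with DMOG and 0.12, 0.14 and 0.37 FPKM without it, so it was low and did not overlap, and EGFL7, at 1.02 to 1.31 against 1.39 to 2.91 FPKM, lay lower with DMOG. CDH5, PECAM1, ERG and EGFL7 were tested and did not pass the limits given below, and the other endothelial markers, LYVE1 among them, averaged under 1 FPKM or had no row and were not tested. Summed over the list, the markers ranged from 10.9 to 18.0 FPKM with DMOG and from 12.8 to 21.8 FPKM without it. The sums overlapped between conditions, where FLT1 did not overlap. The part of endothelial cells in the levels of FLT1, FLT4 and KDR was not tested.

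TNFRSF11B encodes osteoprotegerin, a secreted decoy receptor that in mammals binds the TNF family ligands RANKL and TRAIL. It measured 1.87, 2.07 and 2.81 FPKM in untreated libraries 1, 2 and 3, and 0.27 and 0.08 FPKM in DMOG libraries 1 and 3, and is listed at 0 in DMOG library 2. No other gene of the list was lower with DMOG by as much. TNFRSF11B had a log2 fold change of -2.17 (SE 0.48), ranked 43 of 9816 from the bottom, and it was -3.62 with a pseudocount of 0.1 and -1.54 with 1. TNFSF11, the gene of RANKL, is listed at 0 in all 6 libraries, and TNFRSF11A, the gene of its receptor RANK, was at most 0.74 FPKM. TNFSF10, the gene of TRAIL, measured 3.13 to 5.72 FPKM with DMOG and 3.96 to 23.85 FPKM without it, and TNFRSF10B, a TRAIL receptor gene, averaged 14.6 and 15.3 FPKM. Both overlapped between conditions, with log2 fold changes of -0.68 (SE 0.63, limma adjusted p 0.779) and -0.06 (SE 0.18, limma adjusted p 0.945).

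The levels were ordered within each condition. In untreated cells the order was STC2, ANGPTL4, VEGFC, VEGFA, TNFRSF11B, FLT1, KDR, PGF and STC1. ANGPTL4 and VEGFC did not differ beyond their spread there, nor did VEGFC and VEGFA, FLT1 and KDR, KDR and PGF, or PGF and STC1. With DMOG the order was STC2, ANGPTL4, STC1, PGF, VEGFA, FLT1, VEGFC, KDR and TNFRSF11B. Overlapping neighbours were then STC1 and PGF, PGF and VEGFA, VEGFA and FLT1, and KDR and TNFRSF11B. The ranges of STC2 and ANGPTL4 lay apart in both conditions. The median log2 fold change of the 8 genes that entered the fit was 1.78, beside -0.13 over all tested loci. The genes were chosen on these values, so nothing is read from that difference. STC1 and PGF averaged under 1 FPKM in untreated cells, and TNFRSF11B did so with DMOG. These 3 genes entered the fit through their level in the other condition.

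**Figure D3:**
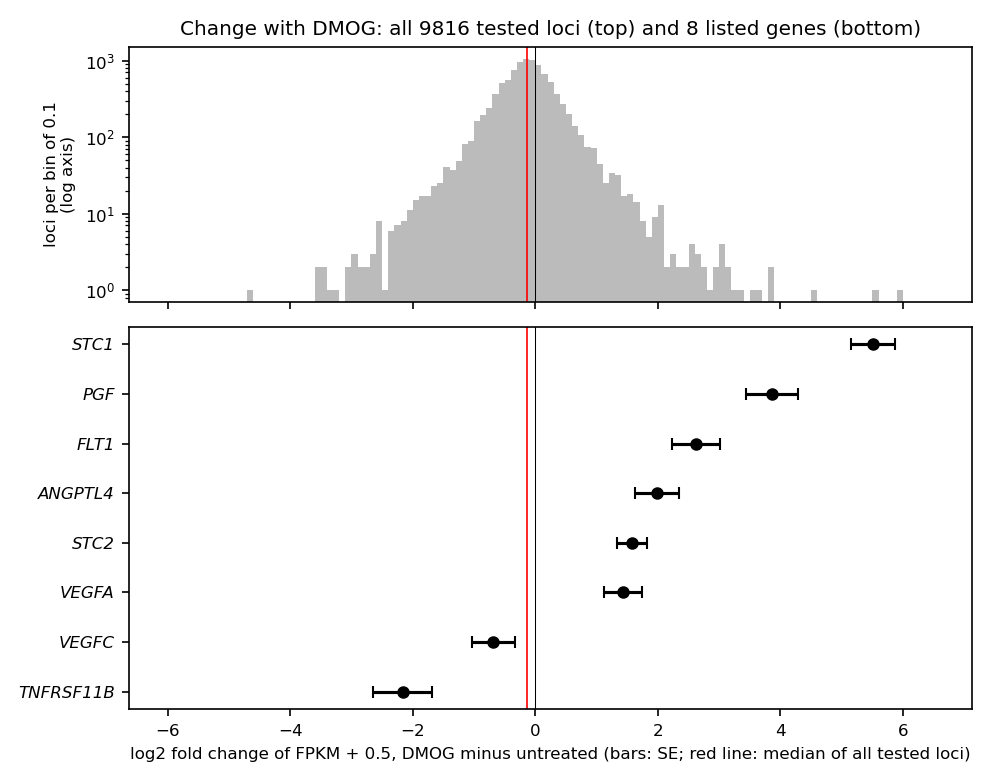
Log2 fold change of FPKM + 0.5, DMOG minus untreated, for all 9816 tested loci (top, number of loci per bin of 0.1 on a log axis) and for the 8 genes that entered the fit (bottom, bars are SE, 3 libraries per condition). The red line marks the median of all tested loci, -0.13, and the genes run from -2.17 for TNFRSF11B to 5.51 for STC1. The genes were chosen on these values.

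To follow the pathway beyond the listed genes, 56 partner genes were taken by function: other VEGF ligands and receptors, receptors of adrenomedullin, partners of osteoprotegerin, stanniocalcin and ANGPTL4, angiopoietins, and other secreted hypoxia-linked factors with their receptors. Of these, 47 had a row, 6 of them listed at 0 in all libraries, and 25 averaged at least 1 FPKM and were tested. The limits of the study were a log2 fold change past 0.60, up or down, and an unadjusted p, here of limma, under 0.05. At these limits 3 of the 25 were higher and 1 was lower with DMOG, and 21 did not pass. The same limits were passed by 7.81% of the tested loci, 2.84% in the higher and 4.97% in the lower direction. The median log2 fold change of the 25 was -0.02. The partner lists were drawn up with earlier results of these data known, so the p-values do not come from a blind choice of genes. With limma none of the 25 (0) had an adjusted p under 0.05, and 4 had an unadjusted p under 0.05. Of all tested loci, 0.163% had an adjusted p under 0.05 in the higher and 0.0306% in the lower direction.

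The 3 genes that were higher were ACKR3, CXCR4 and CCN2. ACKR3 encodes an atypical receptor that takes up the chemokine CXCL12 and, in mouse, adrenomedullin. It measured 13.40, 14.34 and 11.26 FPKM with DMOG against 3.78, 3.12 and 5.69 FPKM in untreated cells, which is a log2 fold change of 1.55 (SE 0.26, limma adjusted p 0.0885). CXCR4, the signalling receptor of CXCL12, measured 10.21, 9.15 and 11.08 FPKM with DMOG against 3.57, 3.59 and 3.10 FPKM in untreated cells. It changed by 1.44 on the log2 scale (SE 0.21, limma adjusted p 0.0606). For both receptors the conditions did not overlap, and both stayed past the limits when any 1 library was left out.

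The ligand of these receptors, CXCL12, was the gene that was lower. It measured 0.50, 0.03 and 0.87 FPKM with DMOG and 2.32, 2.16 and 1.86 FPKM without it, with no overlap. The log2 fold change was -1.54 (SE 0.50, limma adjusted p 0.436). CXCL12 did not pass the limits without untreated library 1, at -1.48, or without untreated library 2, at -1.52. It averaged 0.467 FPKM with DMOG, so it entered the fit through its untreated level. With a pseudocount of 0.1 its log2 fold change was -2.38 and with 1 it was -1.13. CCN2, also called CTGF, encodes a secreted matricellular protein and measured 110.07, 117.79 and 101.44 FPKM with DMOG against 95.28, 37.33 and 59.63 FPKM in untreated cells. It changed by 0.87 on the log2 scale (SE 0.32, limma adjusted p 0.489), and it did not pass the limits without DMOG library 1 or 2 or untreated library 2 or 3, at 0.87, 0.82, 0.54 and 0.87.

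Of the adrenomedullin receptor subunits, CALCRL, the receptor itself, averaged 1.13 FPKM with DMOG and 0.867 without it (log2 fold change 0.27, SE 0.42, limma adjusted p 0.872). RAMP2, its partner for adrenomedullin in mammals, is listed at 0 in every library. RAMP1 ranged from 0 to 2.43 FPKM and was not tested, and RAMP3 had a log2 fold change of -0.23 (SE 0.52, limma adjusted p 0.916). Among other secreted factors that low oxygen induces in other tissues, EDN1 averaged 11.3 and 11.0 FPKM and CCN1 92.7 and 73.8 FPKM with and without DMOG. CCN1 measured 91.47 to 93.56 FPKM with DMOG. In untreated libraries 1, 2 and 3 it measured 53.66, 121.3 and 46.54 FPKM, so the overlap came from untreated library 2. The locus that joins MIF to DDX51 averaged 109 and 111 FPKM, a value that cannot be divided between these genes. EDN1, CCN1 and this joined locus had log2 fold changes of -0.02, 0.46 and -0.01, with limma adjusted p of 0.990, 0.731 and 0.991. TGFB3 did not pass either, with a log2 fold change of 0.17 (SE 0.24, limma adjusted p 0.851). Among the other receptors PDGFRA averaged 3.87 and 4.38 FPKM with and without DMOG (limma adjusted p 0.920), and neither it nor the loci that join LEPR to LEPROT and FGFR1 to PLPP5 and NSD3 passed the limits.

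**Figure D4:**
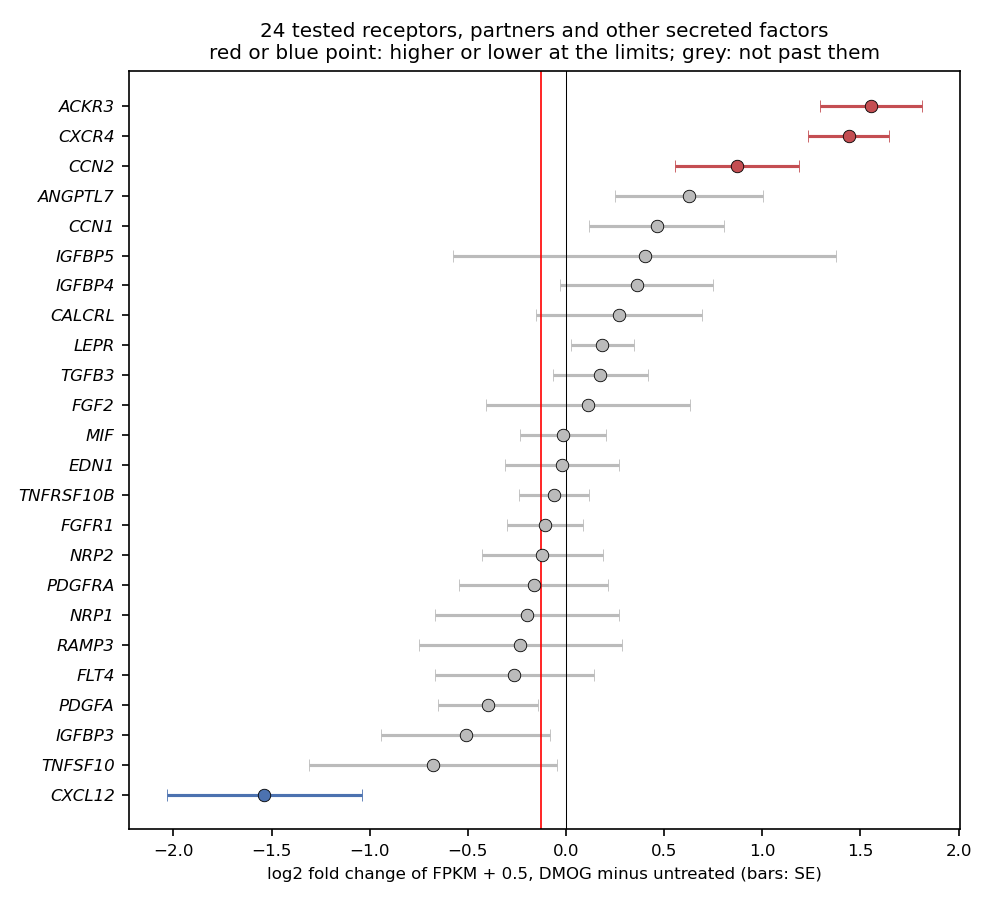
Log2 fold change of FPKM + 0.5, DMOG minus untreated, of 24 of the 25 partner genes that were tested (bars are SE, 3 libraries per condition; the red line is the median of all tested loci, -0.13). ACKR3, CXCR4 and CCN2 are past the limits on the higher side and CXCL12 on the lower side, and the other 20 drawn are grey.

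The loci whose log2 levels ran most like those of STC1 and VEGFA over the 6 libraries were found by Pearson's r. For STC1 they were COQ8B, LOX and FAM13A, with r from 0.998 to 0.999, and 55 of the 9815 other tested loci had an r over 0.95. For VEGFA they were MCM8, SLC16A1 and a locus that joins SEPT5 to a microRNA, with r from 0.990 to 0.993, and 66 loci had an r over 0.95. Pearson's r does not measure the size of a change. The log2 fold changes of COQ8B, LOX and FAM13A were 3.30, 3.81 and 2.40, beside 5.51 for STC1. Those of MCM8, SLC16A1 and the SEPT5 locus were 0.32, 0.91 and 0.72, beside 1.43 for VEGFA. The 6 points share the treatment and the scaling of each library, and r is given as a description. KDR was too low for this comparison.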

How the data were processed

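Total RNA of primary chick lens cells was sequenced after TruSeq stranded library preparation. The authors used Cutadapt for trimming, Bowtie2 and HISAT2 for mapping to galGal6, StringTie and gffcompare for assembly, and edgeR. Tool versions are not given in the sources used here. The deposited table holds FPKM per library, rounded to 2 decimals by the authors, and their fold changes and p-values, which were not used. It gives no coordinates, and no sequences were printed.

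From the FPKM, log2(FPKM + 0.5) was compared between treatments with limma 3.58.1 in R 4.3.3, using a mean-variance trend and no covariate. The fit took the 9816 loci that averaged 1 FPKM or more, with Benjamini-Hochberg adjustment over all of them. The fit was tested on simulated data. Python 3.11.15 (pandas 2.3.3, numpy 2.4.6, matplotlib 3.10.9) made the tables and figures. Read depth per library is unknown. Ratios of low FPKM between DMOG libraries 1 and 2 showed no steps of whole reads, and other pairs of libraries were not compared in this way.

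Genes and lists were chosen with earlier results of these data known. The text names all listed genes and, of each partner list, every gene past the limits and up to 4 others by mean FPKM, with LPL added for its role, and some values are not reported here. Of the marker lists, the lens and endothelial lists stand in the report and the others in the closing section. The alternatives were other pseudocounts, filters, scalings and moderation, leaving out joined loci, replicate number as a block, and leaving out each library. A planned search of promoter sequences was not run.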

Additional observations from a re-analysis of the deposited data

How the results depend on the processing

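Of the 9 listed genes with a row, 6 lay wholly higher with DMOG under each of 11 alternatives. Among these alternatives, only median scaling, quantile normalization and equal sums outside small RNA loci could make separate conditions overlap. A filter could only drop a gene, and the others keep the order of the libraries. The count lying wholly lower was 2, and became 1 with quantile normalization, where VEGFC overlapped, and 0 under a minimum mean of 5 FPKM, which neither gene reached. Leaving out a library cannot make separate conditions overlap, so the counts stayed at 6 and 2 by construction. No log2 fold change of a listed gene changed sign. Only the scalings could have changed it, because the conditions did not overlap in any listed gene that entered the fit. Partner genes past the limits numbered 3 higher under each of the 11 alternatives that kept all libraries and 2 to 3 when each library was left out. Without untreated library 2 the count stayed at 3 although CCN2 did not pass, so another partner gene passed there. The 1 lower became 3 with no filter and 0 at a minimum mean of 5 FPKM, and 0 to 1 without a library. The adjusted p ranged over the alternatives from 0.0388 to 0.409 for ACKR3, 0.0426 to 0.372 for CXCR4, 0.352 to 0.803 for CCN2 and 0.256 to 0.864 for CXCL12. Among all loci in the fit the limits gave 279 higher and 488 lower, a share of 36.4% higher, against 56.1% with median scaling and 56.2% with quantile normalization. The minimum mean of 5 FPKM gave 183 and 231. Lower loci numbered 323 with median scaling and 320 with quantile normalization. Without each library in turn, from 213 to 395 were higher and from 328 to 774 lower, the last without DMOG library 1. An adjusted p under 0.05 was reached by 19 loci, by 40 with median scaling, 34 with quantile normalization, 29 with equal sums outside small RNA loci and 38 with array weights, and by 6 to 21 without a library; 6 were left without untreated library 1 or 2 and 9 without DMOG library 2. Same-numbered libraries did not deviate together (correlations of their deviations of -0.11, -0.17 and -0.23), and the replicate block left 5 loci, with no change in the count of partner genes. TNFRSF11B changed by -1.75 with quantile normalization. The cause of these shifts was not tested. Present genes numbered 4 to 5 in untreated cells at 3 and 0.5 FPKM and 6 to 7 with DMOG, and 5 to 6 and 7 to 7 without a library.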

Other observations

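Of the markers with a row for other cell types that a lens dissection could carry, most averaged under 1 FPKM. ALAS2, EPB42 and the locus that joins PTPRC to NEK7 were the highest of them. Of 11 pericyte and mesenchymal markers, 10 had a row, 2 averaged at least 1 FPKM and RGS5, LUM, TWIST1 and PRRX1 were listed at 0 in all 6 libraries, with sums of 1.51 to 6.26 FPKM with DMOG and 4.42 to 8.26 FPKM without it. Of 8 macrophage markers, 7 had a row and C1QA, C1QB, MARCO and LAPTM5 were listed at 0, with sums of 5.25 to 8.60 and 8.31 to 10.6 FPKM, most of them from the locus that joins PTPRC to NEK7. Of 10 retinal and pigment epithelium markers, 8 had a row, OTX2 and PMEL were listed at 0, and the sums were 2.16 to 5.02 and 2.58 to 3.57 FPKM. Of 8 erythroid markers, 4 had a row, both globin rows, HBA1 and HBBA, were listed at 0, and ALAS2 and EPB42 brought the sums to 15.0 to 19.3 and 15.6 to 20.4 FPKM. Markers of these 4 lists that averaged under 1 FPKM were not tested, and the tested ones (ACTA2, COL3A1, ALAS2, EPB42, CSF1R, PTPRC and RPE65) did not pass the limits.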
